A study of Gossypium hirsutum with 45 samples.

Results

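Roots of cotton seedlings sampled after 30 min in a polyethylene glycol (PEG) solution were compared with roots sampled after 10 min, to ask which transcripts moved in that early interval of water stress. The difference is between 3 libraries from roots at 30 min and 3 from roots at 10 min, of the 45 libraries of the series, and all 15 root libraries entered the fit that estimates the spread. Of the 75376 genes in the deposited table, 46711 reached 1 FPKM (a read level per kilobase of gene, corrected for library size) in at least 3 of the 15 root libraries, and these were tested.

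The plants were upland cotton (Gossypium hirsutum) of the line Hengmian HD008, grown at 25 °C with 16 h of light and 8 h of dark and taken at the 3-leaf stage. All 6 libraries came from plants standing in 10% PEG 6000, so the treatment was the same in both groups and they differed in its length. The 15 root libraries cover 0, 10, 30, 60 and 180 min, with 3 libraries at each, and leaf and stem were sampled at the same times. Untreated plants of 10 or 30 min were not analysed here, so time in PEG and any other effect of time after the plants were moved cannot be told apart. Nothing in the labels says that the 3 libraries of a group came from separate plants, and the p-values then reflect the spread among these libraries alone, which may be technical.

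PEG of high molecular weight lowers the water potential of the solution around the root without passing into its cells, and serves to mimic drought. Roots sense the fall in water potential within minutes, through calcium, phosphoinositide and hormone signals, and the first transcripts to respond include transcription factors of the AP2/ERF, WRKY, MYB and NAC families. Roots are also the organ of mineral uptake, where nitrate, phosphate, potassium and metal transporters sit in the plasma membrane of the outer cells and their transcripts are regulated by nutrient supply and plant demand.

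The 6 libraries held 16582108 to 19205772 reads counted in genes, read back from the deposited FPKM and the gene lengths. On log2(FPKM + 1) over the genes tested, the first 30 min library correlated with the 3 libraries at 10 min at Pearson r of 0.947, 0.932 and 0.921, and with the other 30 min libraries at 0.935 and 0.917. The other pair of 30 min libraries correlated with each other at 0.970. The first 30 min library thus stood about as near to the 10 min libraries as to its own group, and counts are given with and without it. In genes called without it, its median log2 shift from the mean of the 10 min libraries was 0.46 for those that rose and -0.61 for those that fell. Each of the other 5 libraries, left out and compared with the opposite group in the same way, had shifts of 0.90 to 1.45 and of -0.91 to -1.30. The opposite group had helped to choose the genes, so part of each shift in the called direction follows from that choice. These medians are over unlike sets, with 2308 risen and 1509 fallen genes for the first 30 min library. For the other 5 the sets held 192 to 625 and 227 to 517 genes, and a larger set takes in smaller changes. Whether the first library was taken earlier, responded less or differed technically was not tested.

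Changes were tested with limma on log2(FPKM + 1), a scale that understates the fold of genes with low FPKM, and a gene was called where its p, adjusted by Benjamini and Hochberg over all genes tested, was under 0.05. Of the 46711 genes, 2178 (4.66%) were called, with 1163 (2.49%) higher at 30 min and 1015 (2.17%) lower. The median size of the log2 change was 1.00 in the genes that rose and 1.07 in those that fell, and 582 and 584 of them changed by more than 1, while the median change of all genes was -0.02. The genes that rose had a median of 5.66 FPKM at 10 min and 13.0 FPKM at 30 min. Those that fell had a median of 9.30 FPKM at 10 min and 3.56 FPKM at 30 min. The 3 libraries at 30 min lay above all 3 at 10 min in 1158 of the genes that rose, against 6912 (14.8%) of all genes, and below them in 1011 of those that fell, against 6473 (13.9%) of all genes. The calls came from these same libraries, so the separation follows from the choice of genes and is a description.

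The number of calls depended on single libraries. Leaving out 30 min replicate 1 raised it to 3817, and leaving out replicates 2 and 3 lowered it to 466 and 419. Without 10 min replicates 1, 2 and 3 it was 871, 1041 and 542. A call held with each of the 6 libraries left out in turn in 137 of the genes that rose and 151 of those that fell. Fitted with the 6 libraries alone, which leaves fewer samples to estimate the spread, 306 genes were called, 109 higher and 197 lower. For the shorter lists, counts without 30 min replicate 1 are given, and the other fits are those without each of the other 5 libraries and with the 6 libraries alone. A gene that kept its call with each library left out is described below as called without each library, and the libraries whose removal ended a call are named beside the gene.

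**Figure D1:**
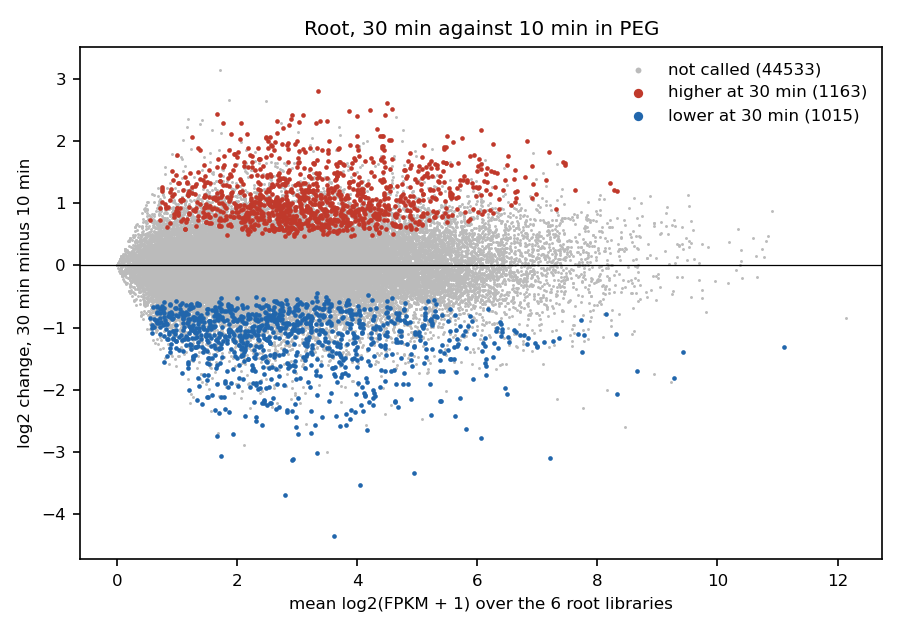
Log2 change from 10 to 30 min in root (vertical) against the mean log2(FPKM + 1) over the 6 libraries (horizontal), 1 point per gene tested. The 1163 genes called higher are red and the 1015 called lower are blue, and both spread over the range of expression levels.

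A gene for the uptake of nitrate stood among the 12 largest falls, and the other nitrate genes called had log2 changes of -1.15 to -1.82. High-affinity nitrate uptake in plants rests on NRT2 transporters of the plasma membrane and on a small partner protein, NRT3 (also NAR2), which they need to be active. Of 9 genes tested that were described as high-affinity nitrate transporters or their accessory proteins, 7 fell (77.8%, against 2.17% of all genes, in a group set apart after its values were seen) and 0 rose (0 at an unadjusted p under 0.05, 0 with voom), with a median log2 change of -1.32. The count of fallen members was 4, 6 and 2 without 10 min replicates 1 to 3 in turn, 4, 3 and 2 without 30 min replicates 1 to 3, and 0 with the 6 libraries alone.

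Gohir.D03G137100 (chromosome D03, 49605660 to 49609165), described as high-affinity nitrate transporter 2.1, had 45.9, 35.2 and 103 FPKM at 10 min and 3.65, 10.3 and 1.21 FPKM at 30 min. All libraries at 30 min lay below all those at 10 min, and the log2 change was -3.52 (SE 0.57, adjusted p = 0.00740), called without each library. Its mean was 50.2 FPKM at 0 min, 3.66 at 60 min and 0.294 at 180 min, so the low level at 30 min was followed by lower ones. A neighbour on the same chromosome, Gohir.D03G137200 (high affinity nitrate transporter 2.3), named after its values were seen, fell from 2.11 to 0.395 FPKM, with an adjusted p of 0.0240. For Gohir.D03G137200 the call was lost without any 1 of 10 min replicate 3 and 30 min replicates 2 and 3 (adjusted p = 0.0513 to 0.104). Gohir.D09G143700 (chromosome D09, 45024030 to 45025798) (high affinity nitrate transporter 2.4) was about as low as this neighbour at 10 min, with 1.86, 2.63 and 1.95 FPKM at 10 min and 0.0363, 0.539 and 0.221 FPKM at 30 min. That was a log2 change of -1.32 (SE 0.19, adjusted p = 0.00532), called without each library.

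The partner proteins, named after their values were seen, were far more abundant. Gohir.A07G056100 (chromosome A07, 7487516 to 7488637), described as high-affinity nitrate transporter 3.2, had 816, 802 and 2418 FPKM at 10 min and 226, 403 and 395 FPKM at 30 min. The log2 change was -1.82 (SE 0.40, adjusted p = 0.0257), and the call was lost without any 1 of 10 min replicate 3 and 30 min replicates 2 and 3 (adjusted p = 0.0662 to 0.0806). The gene of the same description on D07, Gohir.D07G060400, had 482, 464 and 1705 FPKM at 10 min and 178, 251 and 249 FPKM at 30 min, with a log2 change of -1.69 (SE 0.44, adjusted p = 0.0439). For Gohir.D07G060400 the call was lost without any 1 of 10 min replicates 1 and 3 and 30 min replicates 1, 2 and 3 (adjusted p = 0.0534 to 0.126). In both genes the third 10 min library was more than 2 times as high as the other two, and all 30 min libraries lay below all 10 min libraries. The sources used here do not say how reads matching both subgenomes were counted, so the split between A and D copies is uncertain.

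These 9 genes also belong to a list of nitrate, phosphate, sulfate, potassium and ammonium transporters, of which 128 were tested, 13 fell (10.2%, against 2.17% of all genes) and 4 rose (3.12%, against 2.49%). Among the other 119, 6 fell (5.04%) and 4 rose (3.36%), with a median of -0.14 against -0.02 over all genes. The fallen members of the 119 numbered 2, 0 and 3 without 10 min replicates 1 to 3 in turn, 6, 1 and 0 without 30 min replicates 1 to 3, and 0 with the 6 libraries alone, and the risen members 1, 3 and 0 without 10 min replicates 1 to 3 in turn, 6, 0 and 0 without 30 min replicates 1 to 3, and 0 with the 6 libraries alone. Summed over the 119, the level was 1170.0 to 1364 FPKM at 10 min and 933 to 1145 FPKM at 30 min, and over the 9 nitrate genes it was 1862 to 4759.9 FPKM at 10 min and 605 to 993 FPKM at 30 min. Neither pair of ranges overlapped. Most of the nitrate sum came from Gohir.A07G056100 and Gohir.D07G060400, and the top of its 10 min range was the third library. Gohir.A01G180350 (chromosome A01, 110371114 to 110371620), with a domain of K+ transporters, had 35.4, 37.1 and 5.50 FPKM at 10 min and 3.58, 3.62 and 0.503 FPKM at 30 min. The 30 min libraries lay below the 10 min libraries, although the third library was low in each group. Its log2 change was -2.72 (SE 0.66, adjusted p = 0.0367), and the call was lost without any 1 of 10 min replicates 1 and 2 and 30 min replicates 2 and 3 (adjusted p = 0.0805 to 0.151). Members of the list outside the naming rule, chosen after their values were seen, were Gohir.A09G058400 (inorganic phosphate transporter 1-4, 51.7 to 12.2 FPKM, adjusted p = 0.0168) and Gohir.A10G106700 (an ammonium transporter, 10.7 to 4.37 FPKM, adjusted p = 0.0350). For Gohir.A09G058400 the call was lost without any 1 of 10 min replicates 2 and 3 and 30 min replicates 2 and 3 (adjusted p = 0.0539 to 0.0754). For Gohir.A10G106700 the call was lost without any 1 of 10 min replicates 1, 2 and 3 and 30 min replicates 1 and 3 (adjusted p = 0.0540 to 0.140).

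The 4 members that rose were carriers of phosphate and potassium. Gohir.A07G047500 (chromosome A07, 6137101 to 6142485), a mitochondrial phosphate carrier that moves phosphate into the mitochondrion for ATP synthesis, had 2.59, 6.61 and 0.860 FPKM at 10 min and 12.2, 23.7 and 22.5 FPKM at 30 min. All its 30 min libraries lay above all its 10 min libraries, with a log2 change of 2.41 (SE 0.47, adjusted p = 0.0152). For Gohir.A07G047500 the call was lost without any 1 of 10 min replicate 3 and 30 min replicates 2 and 3 (adjusted p = 0.0594 to 0.0685). The gene of the same description on D07, Gohir.D07G051700, named after its values were seen, rose from 0.620 to 3.29 FPKM (adjusted p = 0.0471). For Gohir.D07G051700 the call was lost without any 1 of 10 min replicates 1, 2 and 3 and 30 min replicates 2 and 3 (adjusted p = 0.0887 to 0.173). The 2 others were also named after their values were seen. Gohir.D08G266200 (a K+ efflux antiporter) rose from 1.58 to 3.79 FPKM (adjusted p = 0.0267), and the call was lost without any 1 of 10 min replicates 1 and 3 and 30 min replicates 2 and 3 (adjusted p = 0.0531 to 0.0980). Gohir.A10G047300, a K+ transporter of the same description as the fallen Gohir.A01G180350, rose from 1.96 to 4.15 FPKM (adjusted p = 0.0492), and the call was lost without any 1 of 10 min replicates 1, 2 and 3 and 30 min replicates 2 and 3 (adjusted p = 0.0989 to 0.190).

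Genes of iron and zinc uptake were also among the large falls. Dicot roots take up iron by reducing it at the cell surface with ferric reductases and importing it with transporters of the ZIP and NRAMP families, and nicotianamine, made by nicotianamine synthase, binds metals for transport within the plant. This list was added after the values were seen. Of 82 members tested, 20 fell (24.4%, against 2.17% of all genes) and 3 rose (3.66%, against 2.49%), with a median of -0.38. The fallen members numbered 17, 11 and 11 without 10 min replicates 1 to 3 in turn, 23, 10 and 8 without 30 min replicates 1 to 3, and 5 with the 6 libraries alone. By family, 11 of 30 genes with a ZIP domain, 3 of 20 with an NRAMP domain, 3 of 8 nicotianamine synthases and 3 of 23 genes with a ferric reductase domain fell. The wording of the list also took in 18 genes that carry ferric reductase domains together with the domain of respiratory burst NADPH oxidases, enzymes that make superoxide at the plasma membrane and do not import metals. The 3 members that rose were all of this kind. Without these 18, a split made after the values were seen, 20 of 64 metal genes fell (31.2%) and 0 rose (4 at an unadjusted p under 0.05, 0 with voom), with a median of -0.52. Among the ZIP genes 0 rose (1 at an unadjusted p under 0.05, 0 with voom), among the NRAMP genes 0 rose (3 at an unadjusted p under 0.05, 0 with voom), and among the synthases 0 rose (0 at an unadjusted p under 0.05, 0 with voom). Without 30 min replicate 3 the ZIP count was 5 and without 30 min replicate 2 or 10 min replicate 2 or 3 it was 6, while without 10 min replicate 1 and 30 min replicate 1 it was 9 and 12.

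Gohir.D10G046700 (chromosome D10, 4306685 to 4308177), a ZIP zinc transporter, had 70.1, 81.9 and 159 FPKM at 10 min and 18.3, 7.37 and 4.72 FPKM at 30 min. The groups did not overlap, and the log2 change was -3.33 (SE 0.52, adjusted p = 0.00632), called without each library. Its mean was 139 FPKM at 0 min, 31.6 at 60 min and 0.985 at 180 min. The gene beside it, Gohir.D10G046800, also with a ZIP domain and named after its values were seen, fell from 9.38 to 2.08 FPKM (adjusted p = 0.0145). For Gohir.D10G046800 the call was lost without any 1 of 10 min replicate 3 and 30 min replicate 2 (adjusted p = 0.0578 to 0.0643). Gohir.A10G045700 (chromosome A10, 4621181 to 4622942) had 30.5, 30.6 and 90.5 FPKM at 10 min and 7.07, 5.55 and 6.05 FPKM at 30 min, with the third 10 min library highest and no overlap. The fall of -2.64 (SE 0.39, adjusted p = 0.00545) was called without each library. Gohir.D13G137100 (chromosome D13, 48562229 to 48563380) had 3.94, 4.36 and 7.78 FPKM at 10 min and 0.655, 0.748 and 0.0664 FPKM at 30 min, again without overlap. Its log2 change of -2.08 (SE 0.24, adjusted p = 0.00275) was called without each library.

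Among the other metal genes, Gohir.D06G047000 (chromosome D06, 6931790 to 6936346), of the NRAMP family, had 11.8, 75.1 and 23.1 FPKM at 10 min and 5.86, 1.48 and 1.65 FPKM at 30 min. The second 10 min library stood above the others and the groups did not overlap. The log2 change was -3.01 (SE 0.66, adjusted p = 0.0244), and the call was lost without any 1 of 10 min replicates 2 and 3 and 30 min replicates 2 and 3 (adjusted p = 0.0683 to 0.0996). Nicotianamine synthase Gohir.A08G205700, named after its values were seen, had 14.2, 27.9 and 53.8 FPKM at 10 min and 5.13, 4.73 and 3.53 FPKM at 30 min, with a log2 change of -2.41 (SE 0.38, adjusted p = 0.00632), called without each library. Of the 5 genes with ferric reductase domains and no NADPH oxidase domain, 3 fell (4, 1 and 1 without 30 min replicates 1, 2 and 3 in turn, and 2, 1 and 1 without 10 min replicates 1, 2 and 3). Gohir.D09G043700 (ferric reduction oxidase 4), named after its values were seen, fell from 9.47 to 1.59 FPKM with an adjusted p of 0.00491, called without each library.

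Among the 18 respiratory burst NADPH oxidases tested, 3 rose (16.7%, against 2.49% of all genes) and 0 fell (1 at an unadjusted p under 0.05, 0 with voom), with a median of 0.19, and the risen members numbered 2 without 10 min replicate 1 or 3 or 30 min replicate 2 or 3, and 3 without 10 min replicate 2 or 30 min replicate 1. Gohir.D11G277300 (chromosome D11, 61516858 to 61521746) had 1.30, 1.25 and 0.938 FPKM at 10 min and 5.86, 9.89 and 4.88 FPKM at 30 min. That was a rise of 1.82 (SE 0.20, adjusted p = 0.00211), called without each library, and the mean went on to 15 FPKM at 60 min and 43.2 FPKM at 180 min. Gohir.A11G267300, named after its values were seen, rose from 10.2 to 43.6 FPKM (adjusted p = 0.00841) and was called without each library. The third, Gohir.D05G197600, chosen in the same way, rose from 5.38 to 16.3 FPKM (adjusted p = 0.0356), and the call was lost without any 1 of 10 min replicates 1 and 3 and 30 min replicates 2 and 3 (adjusted p = 0.0761 to 0.137).

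**Figure D2:**
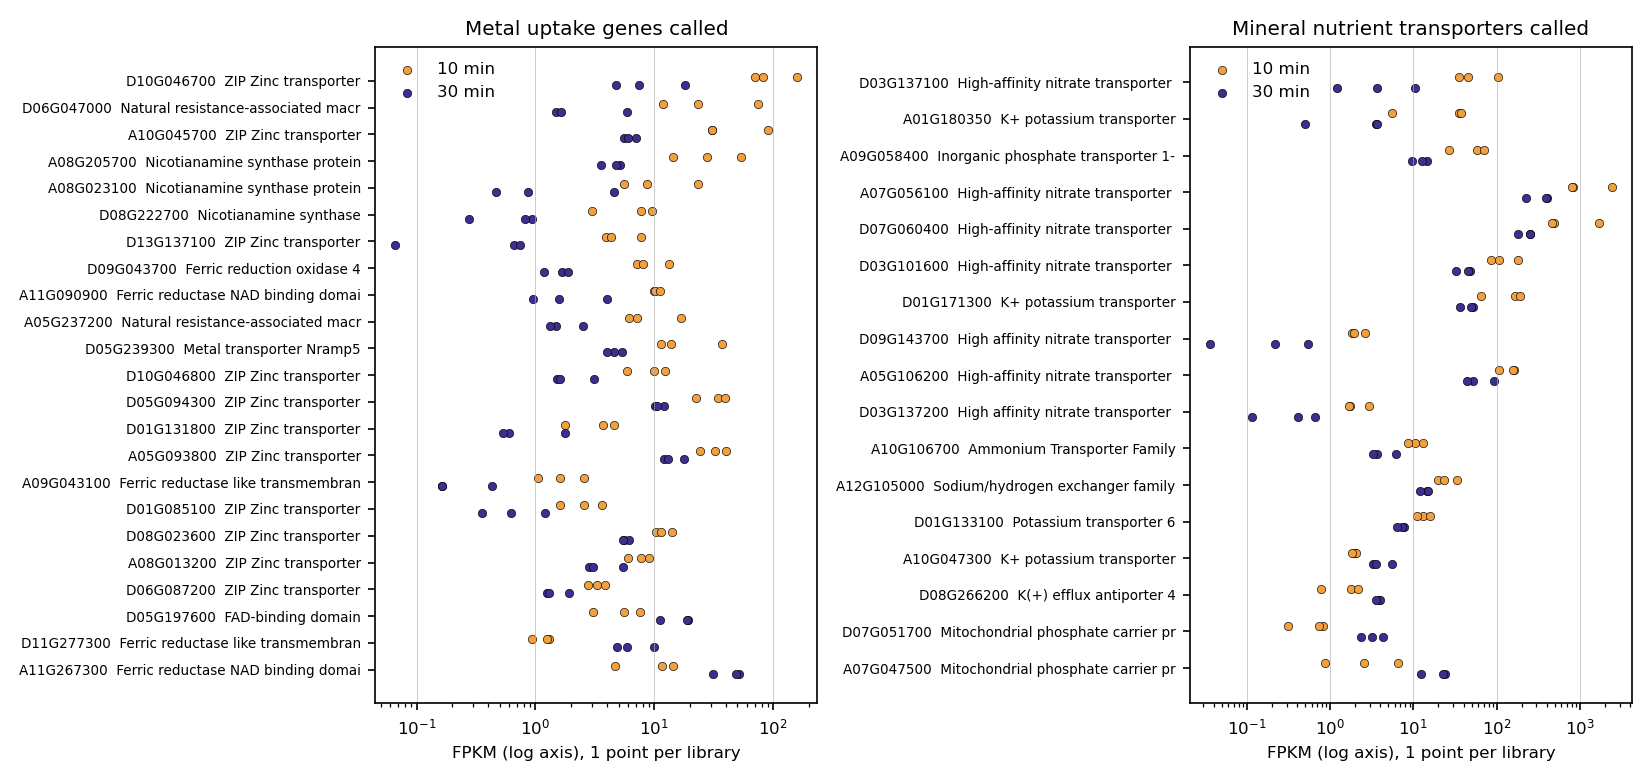
FPKM on a log axis (horizontal) of the 23 called members of the metal uptake list, NADPH oxidases included (left) and the 17 called members of the mineral nutrient transporter list (right), with 10 min libraries in orange and 30 min libraries in dark blue, 1 point per library. In 20 and 13 of them the 30 min libraries are the lower group, and the members that rose are at the bottom of each panel.

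The other large falls were spread over enzymes, carriers and transcription factors. Gohir.A03G031300 (chromosome A03, 5873470 to 5876771), a carrier of the major facilitator superfamily, had the largest log2 change of the described genes whose libraries did not overlap. It had 23.3, 6.75 and 82.3 FPKM at 10 min and 0.408, 3.73 and 0.0904 FPKM at 30 min, a range of more than 10 times within each group, and a log2 change of -3.69 (SE 0.83, adjusted p = 0.0273). For Gohir.A03G031300 the call was lost without any 1 of 10 min replicates 1 and 3 and 30 min replicate 3 (adjusted p = 0.0681 to 0.116). Gohir.A13G223900 (chromosome A13, 110695514 to 110705006), an asparagine synthase, which makes the nitrogen-rich amino acid asparagine from aspartate and glutamine, had 135, 173 and 224 FPKM at 10 min and 39.0, 31.5 and 11.9 FPKM at 30 min. These levels did not overlap, and the log2 change was -2.77 (SE 0.42, adjusted p = 0.00582), called without each library. Its mean was 182 FPKM at 0 min and 2.01 FPKM at 180 min.

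Gohir.D07G023400 (chromosome D07, 2546336 to 2547604), of the Bet v I family of pathogenesis-related proteins, had 10.2, 24.0 and 39.0 FPKM at 10 min and 2.05, 1.47 and 1.20 FPKM at 30 min. Gohir.D01G185200 (chromosome D01, 60882053 to 60883904), a cytochrome P450, had 10.7, 25.8 and 35.7 FPKM at 10 min and 4.16, 1.06 and 0.648 FPKM at 30 min. Both were separated between the groups and called without each library, with log2 changes of -3.13 (SE 0.36, adjusted p = 0.00275) and of -3.12 (SE 0.45, adjusted p = 0.00532). The remaining genes of the 12 largest falls were a MYB-like factor (Gohir.D05G261100, log2 change -3.07), a peroxidase (Gohir.D04G154200, -2.75) and a gibberellin-regulated protein (Gohir.D04G048900, -2.69). For Gohir.D05G261100 the call was lost without any 1 of 10 min replicates 2 and 3 and 30 min replicates 2 and 3 (adjusted p = 0.0645 to 0.0976). For Gohir.D04G154200 the call was lost without any 1 of 10 min replicates 2 and 3 and 30 min replicates 2 and 3 (adjusted p = 0.0909 to 0.116). For Gohir.D04G048900 the call was lost without 30 min replicate 3 (adjusted p = 0.0557).

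Some carriers of sugar and some enzymes of the cell wall were among the falls. SWEET proteins let sugars pass out of cells or vacuoles. Of 20 SWEET genes tested, in a list added after the values were seen, 4 fell (20%, against 2.17%) and 0 rose (1 at an unadjusted p under 0.05, 0 with voom), with a median of -0.50. The fallen SWEET genes numbered 4, 4 and 3 without 10 min replicates 1 to 3 in turn, 6, 3 and 3 without 30 min replicates 1 to 3, and 1 with the 6 libraries alone. Gohir.D13G112600 (chromosome D13, 38451472 to 38452931) had 8.41, 12.4 and 9.97 FPKM at 10 min and 3.44, 2.06 and 1.28 FPKM at 30 min, with no overlap and a log2 change of -1.83 (SE 0.26, adjusted p = 0.00532), called without each library. Of 84 pectin enzymes tested, 8 fell (9.52%, against 2.17% of all genes) and 1 rose (1.19%, against 2.49%), with a median of -0.23, and 7 of the 8 were pectate lyases, which cut pectin. The fallen pectin enzymes numbered 3, 2 and 3 without 10 min replicates 1 to 3 in turn, 9, 1 and 1 without 30 min replicates 1 to 3, and 1 with the 6 libraries alone. Gohir.D10G145000 (chromosome D10, 31316591 to 31320693), a pectate lyase, had 6.30, 7.98 and 7.17 FPKM at 10 min and 2.80, 2.24 and 1.28 FPKM at 30 min, and its fall of -1.42 (SE 0.22, adjusted p = 0.00632) was called without each library. Of 99 expansins and xyloglucan endotransglucosylases, which loosen the wall during growth, 8 fell (8.08%, against 2.17%) and 0 rose (9 at an unadjusted p under 0.05, 1 with voom), with a median of -0.18. The fallen members numbered 3, 1 and 3 without 10 min replicates 1 to 3 in turn, 10, 0 and 0 without 30 min replicates 1 to 3, and 0 with the 6 libraries alone. Expansin-A15 (Gohir.D02G126700) fell from 4.35 to 1.36 FPKM (adjusted p = 0.0240). For Gohir.D02G126700 the call was lost without any 1 of 10 min replicates 1 and 2 and 30 min replicates 2 and 3 (adjusted p = 0.0635 to 0.0983).

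Among 575 domain families with at least 20 genes tested, the largest share that rose was in a family of small proteins described as wound-induced. Of 22 tested members of this family, listed after their values were seen, 10 rose (45.5%, against 2.49% of all genes) and 0 fell (0 at an unadjusted p under 0.05, 0 with voom), with a median of 1.37. The risen members numbered 4, 11 and 2 without 10 min replicates 1 to 3 in turn, 9, 4 and 1 without 30 min replicates 1 to 3, and 1 with the 6 libraries alone. Gohir.D02G183800 (chromosome D02, 66219847 to 66220939) had 4.34, 4.33 and 1.05 FPKM at 10 min and 21.8, 20.1 and 39.8 FPKM at 30 min. The third library was lowest at 10 min and highest at 30 min, and the groups lay far apart. Its log2 change was 2.80 (SE 0.39, adjusted p = 0.00525), called without each library. The mean was 0.125 FPKM at 0 min and went on to 162 FPKM at 60 min and 352 FPKM at 180 min.

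Gohir.A03G160500 (chromosome A03, 106590907 to 106591678), on the corresponding A chromosome, had 8.83, 4.08 and 1.05 FPKM at 10 min and 23.8, 17.5 and 27.0 FPKM at 30 min, without overlap. Its log2 change was 2.32 (SE 0.43, adjusted p = 0.0121), and the call was lost without 30 min replicate 3 (adjusted p = 0.0569). Of the other 8 that rose, 6 carry neighbouring identifiers on D02 or A03, and near-identical neighbours may share reads. The most abundant of them, Gohir.D02G183500, was named after its values were seen. It had 40.2, 75.9 and 25.8 FPKM at 10 min and 96.3, 102 and 201 FPKM at 30 min, with a log2 change of 1.53 (SE 0.38, adjusted p = 0.0407). For Gohir.D02G183500 the call was lost without any 1 of 10 min replicates 1 and 3 and 30 min replicates 2 and 3 (adjusted p = 0.0888 to 0.162).

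WRKY factors are a plant family that binds the W-box and responds to stress and pathogens. Of 202 tested, 20 rose (9.90%, against 2.49%) and 1 fell (0.495%, against 2.17%), with a median of 0.13. The risen members numbered 5, 10 and 4 without 10 min replicates 1 to 3 in turn, 29, 2 and 2 without 30 min replicates 1 to 3, and 4 with the 6 libraries alone. The fallen members numbered 0, 0 and 4 without 10 min replicates 1 to 3 in turn, 0, 0 and 1 without 30 min replicates 1 to 3, and 0 with the 6 libraries alone, so rises and falls were equal in number without 10 min replicate 3. Gohir.A12G123400 (chromosome A12, 84480409 to 84482197), described as probable WRKY transcription factor 23, had 11.6, 9.71 and 4.68 FPKM at 10 min and 30.1, 55.4 and 98.0 FPKM at 30 min. Gohir.D12G127000 (chromosome D12, 43422358 to 43424128) had 10.4, 12.4 and 5.68 FPKM at 10 min and 43.2, 53.8 and 76.8 FPKM at 30 min. In both genes the third library was lowest at 10 min and highest at 30 min, and the groups did not overlap. The log2 changes were 2.61 (SE 0.44, adjusted p = 0.00876) and 2.51 (SE 0.31, adjusted p = 0.00353), both called without each library. The 1 that fell, Gohir.A10G084100 (probable WRKY transcription factor 51), named after its values were seen, went from 3.20 to 1.38 FPKM (adjusted p = 0.0430). For Gohir.A10G084100 the call was lost without any 1 of 10 min replicates 1, 2 and 3 and 30 min replicates 1 and 2 (adjusted p = 0.0669 to 0.121).

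The other large rises had no common family. Gohir.D09G162300 (chromosome D09, 46787447 to 46790710) carries the domains of thiamine pyrophosphate enzymes such as pyruvate decarboxylase, the first enzyme of ethanolic fermentation, and had 7.88, 15.9 and 2.18 FPKM at 10 min and 41.2, 39.6 and 49.3 FPKM at 30 min. All 30 min libraries lay above all 10 min libraries, and the log2 change was 2.50 (SE 0.54, adjusted p = 0.0232). For Gohir.D09G162300 the call was lost without any 1 of 10 min replicates 1 and 3 and 30 min replicates 2 and 3 (adjusted p = 0.0550 to 0.0886). Of 19 globins and thiamine pyrophosphate enzymes tested, 1 rose, this gene, and 0 fell (2 at an unadjusted p under 0.05). Of 91 genes with an alcohol dehydrogenase domain, listed after the values were seen, 0 rose (5 at an unadjusted p under 0.05). In that list 13 fell (14.3%, against 2.17% of all genes), with a median of -0.27. The falls numbered 1 to 14 with each library left out and 2 with the 6 libraries alone. Whether these genes act in fermentation was not tested. Gohir.D09G136900 (chromosome D09, 44020344 to 44025947), a PDR-type ABC transporter, of a class that exports terpenoids and other small molecules, had 0.943, 1.47 and 0.396 FPKM at 10 min and 5.08, 12.1 and 9.0 FPKM at 30 min. That rise of 2.30 (SE 0.34, adjusted p = 0.00552) was called without each library, and means at 60 and 180 min were 16.0 and 27.9 FPKM. Gohir.A05G266900 (chromosome A05, 30430850 to 30432227), with a MYB-like domain, had 2.52, 3.92 and 1.09 FPKM at 10 min and 14.4, 12.7 and 21.9 FPKM at 30 min, with no overlap. This rise of 2.35 (SE 0.28, adjusted p = 0.00296) was called without each library.

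Single libraries stood apart in others of the 12 largest rises. UDP-glycosyltransferase 73C6 (Gohir.D01G082500) had 1.76, 1.54 and 2.21 FPKM at 10 min and 3.87, 22.8 and 23.8 FPKM at 30 min, with the first 30 min library near the 10 min level and a log2 change of 2.33 (SE 0.51, adjusted p = 0.0250). Early nodulin 93 (Gohir.D05G019000) was instead highest in that library, with 0.484, 0.736 and 0.441 FPKM at 10 min and 12.3, 3.53 and 6.12 FPKM at 30 min. A sulfotransferase (Gohir.D11G243300) was low in the third 30 min library, with 4.23, 4.66 and 3.37 FPKM at 10 min and 39.9, 53.6 and 6.27 FPKM at 30 min. A thaumatin family gene (Gohir.D03G152800) was high in the first 10 min library and the second 30 min library, with 19.3, 3.75 and 2.50 FPKM at 10 min and 25.5, 75.2 and 24.0 FPKM at 30 min. For Gohir.D01G082500 the call was lost without any 1 of 10 min replicates 1, 2 and 3 and 30 min replicates 2 and 3 (adjusted p = 0.0664 to 0.112). For Gohir.D05G019000 the call was lost without any 1 of 10 min replicates 1, 2 and 3 and 30 min replicates 1 and 3 (adjusted p = 0.0552 to 0.0996). For Gohir.D11G243300 the call was lost without any 1 of 10 min replicates 1, 2 and 3 and 30 min replicates 1 and 2 (adjusted p = 0.0704 to 0.155). For Gohir.D03G152800 the call was lost without any 1 of 10 min replicates 2 and 3 and 30 min replicates 2 and 3 (adjusted p = 0.10 to 0.186).

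**Figure D3:**
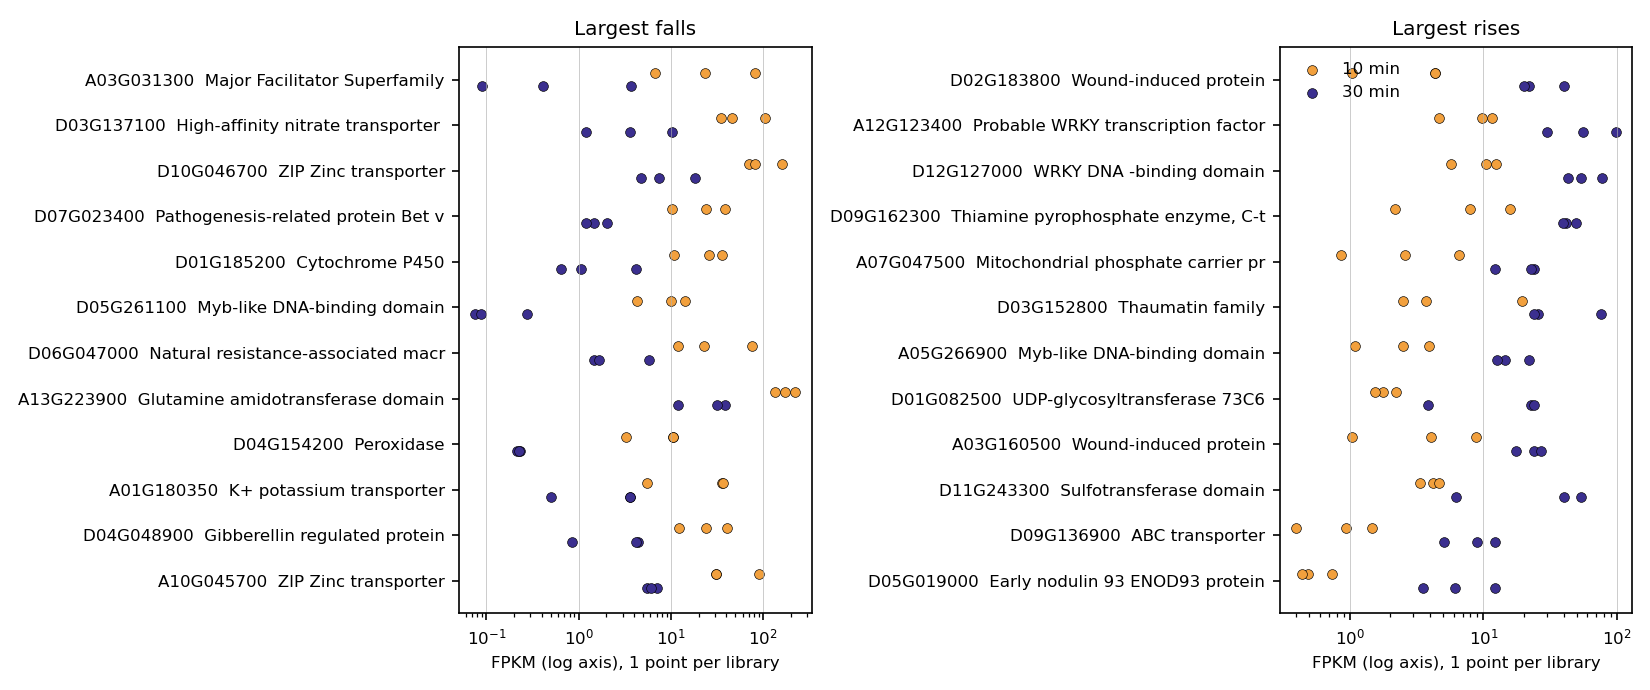
FPKM on a log axis (horizontal) of the 12 described genes with the largest falls (left) and the 12 with the largest rises (right), among genes called in root at 30 against 10 min whose groups do not overlap. Points are single libraries, orange at 10 min and dark blue at 30 min, and single libraries stand apart in several rows, such as the first 30 min library of Gohir.D01G082500 at 3.87 FPKM.

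AP2/ERF factors, which include the ethylene response factors and the DREB factors of drought and cold responses, moved in both directions. Of 327 tested, 31 fell (9.48%, against 2.17%) and 14 rose (4.28%, against 2.49%), with a median of -0.07. The fallen members numbered 18, 27 and 14 without 10 min replicates 1 to 3 in turn, 30, 14 and 16 without 30 min replicates 1 to 3, and 17 with the 6 libraries alone. The risen members numbered 4, 10 and 3 without 10 min replicates 1 to 3 in turn, 28, 2 and 1 without 30 min replicates 1 to 3, and 0 with the 6 libraries alone. Gohir.D07G016000 (chromosome D07, 1768410 to 1769391), described as ERF017, had 12.4, 7.91 and 12.4 FPKM at 10 min and 1.39, 1.93 and 1.32 FPKM at 30 min. It fell by 2.21 on the log2 scale (SE 0.22, limma adjusted p = 0.00196), called without each library, and its mean had been 54.2 FPKM at 0 min. Gohir.D06G080301 (chromosome D06, 16305170 to 16306220) had 12.6, 10.2 and 14.9 FPKM at 10 min and 1.63, 2.57 and 3.77 FPKM at 30 min, after 101 FPKM at 0 min. Its change of -1.92 (SE 0.21, adjusted p = 0.00211) was called without each library. Dehydration-responsive element-binding protein 1B (Gohir.D12G227600), named after its values were seen, fell from 52.3 to 16.5 FPKM (adjusted p = 0.0103), called without each library.

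A pair of risen members of the family was also chosen after the values were seen. Gohir.D11G024500 (chromosome D11, 1975448 to 1976887) had 8.98, 15 and 4.12 FPKM at 10 min and 21.7, 48.5 and 69.7 FPKM at 30 min, with no overlap. Its log2 change was 2.20 (SE 0.41, adjusted p = 0.0128), its mean was 0.330 FPKM at 0 min and 6.06 FPKM at 60 min, and the call was lost without any 1 of 30 min replicates 2 and 3 (adjusted p = 0.0590 to 0.0612). Gohir.A08G000092 rose from 25.1 to 96.9 FPKM with an adjusted p of 0.00839, called without each library.

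Other families of transcription factors are set beside the 2.49% of all genes that rose and the 2.17% that fell. Of 639 MYB-like genes, 35 rose (5.48%, 63 without 30 min replicate 1 and 4 to 19 in the other fits) and 16 fell (2.50%, 18 without 30 min replicate 1 and 1 to 6 in the other fits). Over all 639 the median was 0.11. Of 168 NAC factors, 7 rose (4.17%, 13 without 30 min replicate 1 and 2 to 5 in the other fits) and 2 fell (1.19%, 4 without 30 min replicate 1 and 0 to 1 in the other fits). Over all 168 the median was 0.08. Gohir.D04G140500 (chromosome D04, 51009079 to 51011238), a NAC factor, had 11, 12.9 and 8.04 FPKM at 10 min and 30.0, 50.7 and 61.6 FPKM at 30 min. All its 30 min libraries were higher, with a log2 change of 2.02 (SE 0.34, adjusted p = 0.00919), called without each library, while its means at 0, 60 and 180 min were 24.8, 23.8 and 24.7 FPKM. Gohir.A07G025600, with MYB-like and response regulator domains, had 4.39, 4.10 and 3.59 FPKM at 10 min and 10.9, 13.8 and 17.7 FPKM at 30 min, a rise of 1.57 (SE 0.22, adjusted p = 0.00532) called without each library. Of 156 bZIP factors 2 rose (1.28%, 9 without 30 min replicate 1 and 0 in the other fits) and 4 fell (2.56%, 4 without 30 min replicate 1 and 0 in the other fits). Over all 156 the median was 0.10. Of 70 C2H2 zinc finger factors 1 rose (1.43%, 6 without 30 min replicate 1 and 0 in the other fits) and 3 fell (4.29%, 3 without 30 min replicate 1 and 2 in the other fits). Over all 70 the median was 0.06. C2H2 gene Gohir.D11G207400 had 12.3, 12 and 13.8 FPKM at 10 min and 5.06, 5.55 and 4.82 FPKM at 30 min, a fall of -1.16 (SE 0.16, adjusted p = 0.00525) called without each library.

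Of 119 genes of the clock or with a CCT motif, a domain of clock and light response regulators, 4 rose (3.36%, 9 without 30 min replicate 1 and 1 to 3 in the other fits) and 5 fell (4.2%, 5 without 30 min replicate 1 and 0 to 2 in the other fits), with a median of 0.00, where 2.49% and 2.17% of all genes did. Gohir.D11G014800 (chromosome D11, 1235001 to 1237701), with a CCT motif, had 27.2, 32.8 and 18.7 FPKM at 10 min and 78.2, 105 and 156 FPKM at 30 min. Its rise of 2.05 (SE 0.30, adjusted p = 0.00552) was called without each library.

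Calls in the hormone lists included enzymes that make or break down hormones, and over all genes 2.49% rose and 2.17% fell. Of 42 ethylene genes 3 rose (7.14%, 7 without 30 min replicate 1 and 0 to 2 in the other fits) and 1 fell (2.38%, 3 without 30 min replicate 1 and 1 to 2 in the other fits). Over all 42 the median was 0.14. The gene that fell, Gohir.D12G233800 (chromosome D12, 59080776 to 59083328), encodes 1-aminocyclopropane-1-carboxylate synthase, which makes the precursor of ethylene, and had 23.5, 26.8 and 25.0 FPKM at 10 min and 7.93, 8.77 and 9.39 FPKM at 30 min. Within each group its libraries differed little, and the log2 change of -1.43 (SE 0.22, adjusted p = 0.00632) was called without each library. Among 76 genes of gibberellin or cytokinin 3 rose (3.95%, 5 without 30 min replicate 1 and 1 to 3 in the other fits) while 1 fell (1.32%, 1 without 30 min replicate 1 and 0 to 1 in the other fits). Over all 76 the median was 0.09. Cytokinin dehydrogenase, which breaks down cytokinin, accounted for 2 of the 3. Gohir.D13G013800 (chromosome D13, 1286689 to 1288914) had 1.23, 2.75 and 2.29 FPKM at 10 min and 6.16, 18.2 and 15.7 FPKM at 30 min, a rise of 2.13 (SE 0.34, adjusted p = 0.00719) called without each library. The other, Gohir.D05G040300, named after its values were seen, had 22.8, 17.6 and 19.1 FPKM at 10 min and 45.7, 80.2 and 69.7 FPKM at 30 min, with an adjusted p of 0.0136. For Gohir.D05G040300 the call was lost without any 1 of 10 min replicate 3 and 30 min replicates 2 and 3 (adjusted p = 0.0512 to 0.0645).

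Of 129 genes of jasmonate synthesis and its TIFY/JAZ repressors, 2 rose (1.55%, 8 without 30 min replicate 1 and 0 in the other fits) and 4 fell (3.10%, 3 without 30 min replicate 1 and 0 to 2 in the other fits), with a median of -0.08, against 2.49% and 2.17% of all genes. Protein TIFY 5A (Gohir.D09G077300) had 8.84, 8.89 and 9.72 FPKM at 10 min and 1.56, 1.44 and 0.0902 FPKM at 30 min, with the third 30 min library far below the others, a log2 change of -2.42 (SE 0.53, adjusted p = 0.0245). For Gohir.D09G077300 the call was lost without any 1 of 10 min replicates 1, 2 and 3 and 30 min replicates 2 and 3 (adjusted p = 0.0590 to 0.109). Of 238 early auxin genes 8 rose (3.36%, 12 without 30 min replicate 1 and 1 to 4 in the other fits) and 6 fell (2.52%, 10 without 30 min replicate 1 and 0 to 5 in the other fits). Over all 238 the median was 0.00. Auxin response factor gene Gohir.A05G146200 had 7.41, 8.41 and 5.81 FPKM at 10 min and 13.7, 21.1 and 22.8 FPKM at 30 min, a rise of 1.28 (SE 0.22, adjusted p = 0.00888) called without each library.

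Signalling through phosphoinositides and abscisic acid is the theme of the study, and its lists are set beside the 2.49% of all genes that rose and the 2.17% that fell. Of 66 phosphatidylinositol kinases 2 fell (3.03%, 2 without 30 min replicate 1 and 0 to 2 in the other fits) and 0 rose (2 at an unadjusted p under 0.05, 0 with voom), with a median of -0.04. Gohir.D04G108600 (chromosome D04, 40642881 to 40651868), described as phosphatidylinositol 4-phosphate 5-kinase 9, which makes the substrate of phospholipase C, had 5.27, 5.86 and 7.71 FPKM at 10 min and 2.38, 2.78 and 2.68 FPKM at 30 min. The groups did not overlap, with a log2 change of -1.0 (SE 0.18, adjusted p = 0.0114). For Gohir.D04G108600 the call was lost without 10 min replicate 3 (adjusted p = 0.0521). Of 39 phospholipases C and D 1 rose (2.56%, 3 without 30 min replicate 1 and 0 in the other fits) and 0 fell (2 at an unadjusted p under 0.05, 0 with voom), with a median of 0.29 (0.22 when scaled by library totals). That gene, Gohir.A06G163500 (chromosome A06, 120879209 to 120883115), a phosphatidylinositol-specific phospholipase C, had 65.9, 60.8 and 81.4 FPKM at 10 min and 112, 129.7 and 189 FPKM at 30 min. Its rise of 1.01 (SE 0.25, adjusted p = 0.0373) kept its call in 1 of the 6 fits that left out a library: the call was lost without any 1 of 10 min replicates 1, 2 and 3 and 30 min replicates 2 and 3 (adjusted p = 0.0709 to 0.149). Of 27 diacylglycerol kinases 0 rose (3 at an unadjusted p under 0.05, 0 with voom) and 0 fell (0 at an unadjusted p under 0.05, 0 with voom), with a median of 0.08, and the 2 with the smallest p, Gohir.D07G073600 and Gohir.A07G069200, had means of 56.7 and 108 FPKM at 10 min and 101 and 181 FPKM at 30 min (adjusted p = 0.0894 and 0.167). Of 62 enzymes of inositol and its phosphates 3 rose (4.84%, 4 without 30 min replicate 1 and 0 to 3 in the other fits) and 0 fell (3 at an unadjusted p under 0.05, 1 with voom), with a median of -0.07, among them inositol polyphosphate 5-phosphatase 3 (Gohir.A02G062400), from 1.87 to 4.50 FPKM (adjusted p = 0.0155). For Gohir.A02G062400 the call was lost without any 1 of 10 min replicates 1 and 3 and 30 min replicates 2 and 3 (adjusted p = 0.0542 to 0.0746).

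Of 41 genes of abscisic acid synthesis, breakdown and signalling, 1 rose (2.44%, 1 without 30 min replicate 1 and 0 in the other fits) and 1 fell (2.44%, 2 without 30 min replicate 1 and 0 in the other fits). Over all 41 the median was -0.21. The receptor PYL4 (Gohir.A09G167500) had 53.3, 59.7 and 54.7 FPKM at 10 min and 108, 93.0 and 164 FPKM at 30 min. Zeaxanthin epoxidase (Gohir.D11G199300), an enzyme early in abscisic acid synthesis, had 3.40, 3.81 and 3.38 FPKM at 10 min and 1.91, 1.80 and 1.92 FPKM at 30 min. Neither gene's groups overlapped, with log2 changes of 1.07 (SE 0.28, adjusted p = 0.0479) and -0.65 (SE 0.16, adjusted p = 0.0361). For Gohir.A09G167500 the call was lost without any 1 of 10 min replicates 1, 2 and 3 and 30 min replicates 2 and 3 (adjusted p = 0.0822 to 0.184). For Gohir.D11G199300 the call was lost without any 1 of 10 min replicates 1, 2 and 3 and 30 min replicates 2 and 3 (adjusted p = 0.0805 to 0.118). Of 205 type 2C protein phosphatases, some of which inhibit the abscisic acid pathway, 6 rose (2.93%, 19 without 30 min replicate 1 and 0 to 4 in the other fits) and 8 fell (3.90%, 6 without 30 min replicate 1 and 0 to 4 in the other fits). Over all 205 the median was 0.01. Gohir.D10G216700 had 0.914, 0.809 and 0.727 FPKM at 10 min and 2.22, 2.25 and 2.51 FPKM at 30 min, a rise of 0.87 (SE 0.15, adjusted p = 0.00947) called without each library.

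Of 28 calcium-dependent and CBL-interacting kinases, which relay calcium signals, 2 fell (7.14%, 1 without 30 min replicate 1 and 0 to 1 in the other fits), against 2.17% of all genes, and 0 rose (2 at an unadjusted p under 0.05, 1 with voom). The 2 fallen genes were both described as calcium-dependent protein kinase 28. Gohir.A02G170800 (chromosome A02, 107593249 to 107598581) had 118, 111 and 130.3 FPKM at 10 min and 39.6, 58.3 and 52.7 FPKM at 30 min, and its fall of -1.25 (SE 0.21, adjusted p = 0.00869) was called without each library. Gohir.D03G009300 had 51.2, 49.1 and 54.2 FPKM at 10 min and 19.5, 32.1 and 30.1 FPKM at 30 min, also without overlap, with a log2 change of -0.92 (SE 0.21, adjusted p = 0.0303). This gene on D03 lost its call without any 1 of the 6 libraries, at an adjusted p of 0.0518 to 0.103. Of 28 calmodulin genes 0 rose (0 at an unadjusted p under 0.05, 0 with voom) and 0 fell (4 at an unadjusted p under 0.05, 0 with voom), and the median was 0.01 (-0.06 when scaled by library totals, -0.02 with quantile scaling).

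LEA proteins and dehydrins protect cells from water loss. Of 98 tested 3 rose (3.06%, 8 without 30 min replicate 1 and 2 in the other fits), against 2.49% of all genes, and 0 fell (9 at an unadjusted p under 0.05, 0 with voom), with a median of 0.00. Gohir.D01G191900 (chromosome D01, 61816464 to 61817547) had 21.8, 18.7 and 26.7 FPKM at 10 min and 63.7, 83.7 and 116 FPKM at 30 min. A second LEA gene, Gohir.A01G202000 (chromosome A01, 115725540 to 115726707), had 21.4, 21.3 and 31.8 FPKM at 10 min and 65.7, 75.2 and 74.7 FPKM at 30 min. Both pairs of groups lay apart, with log2 changes of 1.90 (SE 0.24, adjusted p = 0.00353) and 1.52 (SE 0.21, adjusted p = 0.00532), called without each library. Of 83 genes of proline and soluble sugars 3 rose (3.61%, 8 without 30 min replicate 1 and 1 to 2 in the other fits) and 1 fell (1.20%, 1 without 30 min replicate 1 and 0 to 1 in the other fits). Over all 83 the median was 0.09. Gohir.A11G167900 (chromosome A11, 23077408 to 23080477), a proline dehydrogenase, which breaks down the compatible solute proline, had 80.9, 88.2 and 92.3 FPKM at 10 min and 231, 203 and 246 FPKM at 30 min. That rise of 1.37 (SE 0.23, adjusted p = 0.00917) was called without each library and followed a mean of 16.7 FPKM at 0 min.

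Among 415 heat shock genes, which encode chaperones and their regulators, 12 rose (2.89%, against 2.49% of all genes) and 0 fell (19 at an unadjusted p under 0.05, 1 with voom), with a median of 0.10. The risen members numbered 0, 2 and 1 without 10 min replicates 1 to 3 in turn, 26, 0 and 1 without 30 min replicates 1 to 3, and 1 with the 6 libraries alone. Of 77 aquaporins, the water channels of the membrane, 3 fell (3.90%, 11 without 30 min replicate 1 and 0 to 3 in the other fits), against 2.17% of all genes, and 0 rose (4 at an unadjusted p under 0.05, 1 with voom), with a median of -0.48. Gohir.D11G342600 had 88.1, 134 and 186 FPKM at 10 min and 58.4, 28.7 and 32.0 FPKM at 30 min, with a log2 change of -1.76 (SE 0.42, adjusted p = 0.0350). For Gohir.D11G342600 the call was lost without any 1 of 10 min replicates 2 and 3 and 30 min replicates 2 and 3 (adjusted p = 0.0831 to 0.133).

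**Figure D4:**
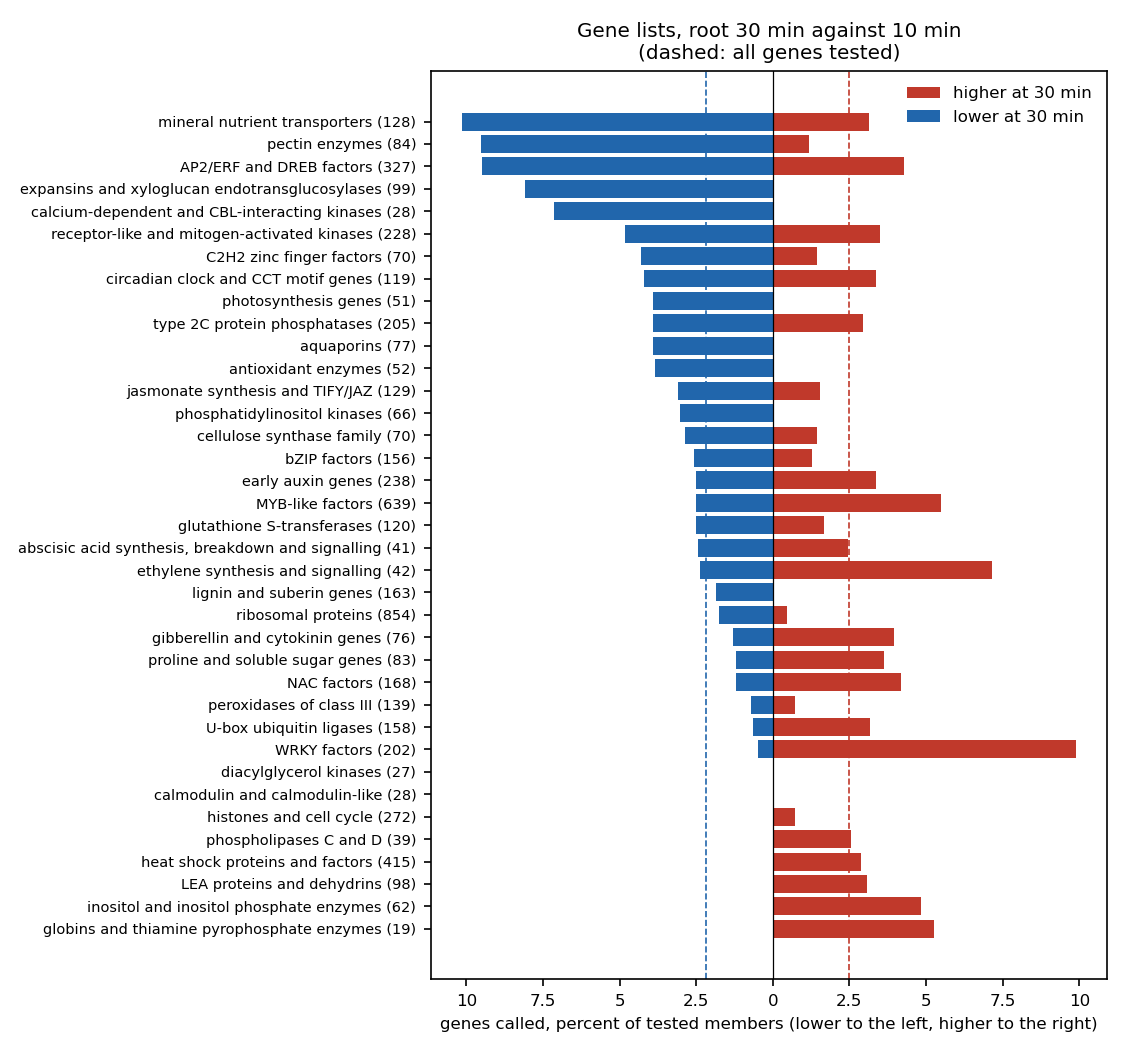
Percent of the tested members of each of 37 gene lists that were called lower (blue, to the left) or higher (red, to the right) in root at 30 against 10 min, with the number tested in brackets. Dashed lines mark the 2.17% and 2.49% of all genes tested, and the longest bars, at 10.2% and 9.90%, are the falls of mineral nutrient transporters, nitrate genes included, and the rises of WRKY factors. Lists added after the values were seen are not drawn. Some had larger shares, such as 45.5% risen for wound-induced proteins and 24.4% fallen for metal uptake genes.

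Members of a pair of families of vesicle traffic rose, in lists added after the values were seen. Sec23 and Sec24 form the inner coat of vesicles leaving the endoplasmic reticulum, and Arf GTPase activating proteins act on the small GTPases of the Golgi. Of 39 Sec23/Sec24 genes 6 rose (15.4%, against 2.49%) and 0 fell (0 at an unadjusted p under 0.05, 0 with voom), with a median of 0.29. Of 48 Arf GTPase activating proteins 8 rose (16.7%, against 2.49%) and 0 fell (3 at an unadjusted p under 0.05, 0 with voom), with a median of 0.24. The risen members numbered, in the first family, 2, 3 and 1 without 10 min replicates 1 to 3 in turn, 7, 2 and 1 without 30 min replicates 1 to 3, and 1 with the 6 libraries alone. In the second family they numbered 2, 4 and 0 without 10 min replicates 1 to 3 in turn, 9, 1 and 0 without 30 min replicates 1 to 3, and 0 with the 6 libraries alone. Changes were small, as in Gohir.D12G123700, with a Sec23/Sec24 domain, which had 6.52, 6.76 and 5.49 FPKM at 10 min and 11.9, 15.1 and 16.6 FPKM at 30 min, a rise of 1.09 (SE 0.17, adjusted p = 0.00719) called without each library. Gohir.A09G199000, of the second family, had 6.16, 8.79 and 5.08 FPKM at 10 min and 13.9, 15.2 and 16.6 FPKM at 30 min, a rise of 1.11 (SE 0.20, adjusted p = 0.0119). For Gohir.A09G199000 the call was lost without any 1 of 10 min replicate 3 and 30 min replicate 3 (adjusted p = 0.0526 to 0.0540).

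Genes of growth and of other cell types were examined for what moved beside these changes. Ribosomal proteins had a median of -0.26 over 854 genes, with 15 called lower (1.76%, against 2.17% of all genes) and 4 higher (0.468%, against 2.49%). The fallen count was 0, 9 and 0 without 10 min replicates 1 to 3 in turn, 44, 1 and 0 without 30 min replicates 1 to 3, and 2 with the 6 libraries alone. Histone and cell cycle genes had a median of -0.31 over 272 genes, where 2 rose (0.735%, 7 without 30 min replicate 1 and 0 in the other fits) and 0 fell (25 at an unadjusted p under 0.05, 0 with voom). The fallen histone and cell cycle genes numbered 0, 1 and 0 without 10 min replicates 1 to 3 in turn, 20, 0 and 0 without 30 min replicates 1 to 3, and 0 with the 6 libraries alone. Of 163 lignin and suberin genes 3 fell (1.84%, 15 without 30 min replicate 1 and 0 to 3 in the other fits) and 0 rose (8 at an unadjusted p under 0.05, 0 with voom), with a median of -0.38. Each of these medians was below 0 when scaled by library totals and with quantile scaling too.

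Markers of the endodermis and of green tissue were low, and those of lignifying cells were not. Laccases summed to 3871 to 5188 FPKM at 10 min and 4010 to 5547 FPKM at 30 min. Of 78, 0 fell (13 at an unadjusted p under 0.05, 0 with voom) and 0 rose (5 and 0). Dirigent proteins summed to 4274 to 5921 and 3249 to 4677 FPKM, with a median of -0.49. Of 68, 3 fell (4.41%, against 2.17%, 8 without 30 min replicate 1 and 0 to 3 in the other fits). The 3 Casparian strip genes tested, markers of the endodermis, summed to 7.03 to 21.8 FPKM at 10 min and 2.90 to 16.4 FPKM at 30 min, where 0 fell (1 at an unadjusted p under 0.05, 0 with voom) and 0 rose (0 at an unadjusted p under 0.05, 0 with voom). The 11 tested genes of the Rubisco small subunit and chlorophyll a/b binding proteins, markers of green tissue, summed to 20.9 to 29.8 FPKM at 10 min and 19.3 to 21.1 FPKM at 30 min, where 0 fell (2 at an unadjusted p under 0.05, 0 with voom) and 0 rose (0 at an unadjusted p under 0.05, 0 with voom). In the wider list of 51 photosynthesis genes 2 fell (3.92%, against 2.17%, 2 without 30 min replicate 1 and 0 to 2 in the other fits). There 0 rose (2 at an unadjusted p under 0.05, 0 with voom), and the median was -0.08. Whether the share of root zones or cell types differed between the samples was not tested, and in whole roots fewer cells of a type and less RNA per cell cannot be told apart.

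The libraries of the other times entered the filter and the shared estimate of the spread, but not the difference between 30 and 10 min. Of the 1163 genes that rose, 933 were called higher and 12 lower in root at 60 against 0 min, where 19.5% and 19.1% of all genes tested were called. At 180 against 0 min 818 were higher and 63 lower, where 28.5% and 26.9% of all genes were. Of the 1015 that fell, 21 were higher and 733 lower at 60 min, and 38 and 755 at 180 min. The 60 and 180 min contrasts share the 0 min libraries with each other. They also share each gene's estimate of the spread with the step. Genes called in the step lean to a small spread, which makes a call in these contrasts more likely than among all genes.

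Over the 5 times, the mean level of the 1163 risen genes was highest at 30 min in 522, at 60 min in 221 and at 180 min in 416, and in 4 at 0 min. For all 46711 genes tested these counts were 7177, 5807, 15388 and 11769. In the 1015 fallen genes the mean was lowest at 30 min in 341, at 60 min in 98 and at 180 min in 567, and in 9 at 0 min. For all 46711 genes these counts were 7290, 6337, 15068 and 11484. The 30 min libraries helped to choose these genes, so the counts at 30 min are a description. Genes with a peak at 30 min among those named were the AP2 gene Gohir.D11G024500, the NAC factor Gohir.D04G140500 and the MYB-like gene Gohir.A05G266900, whose means were 6.06, 23.8 and 4.12 FPKM at 60 min. In contrast, the thiamine pyrophosphate enzyme Gohir.D09G162300 went on to 201 and 336 FPKM.

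**Figure D5:**
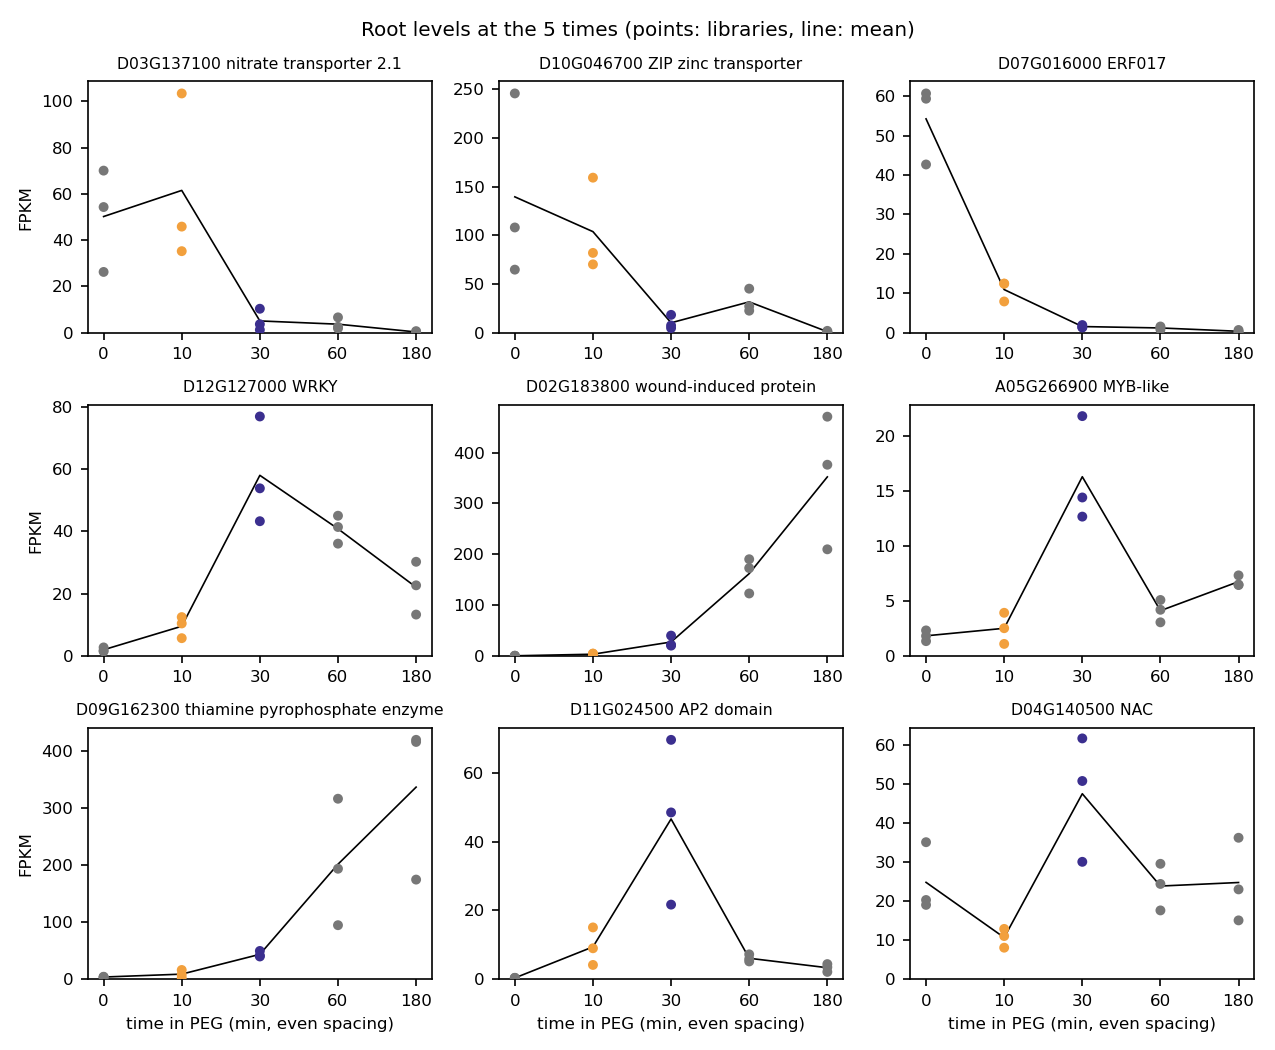
FPKM of 9 genes in root (vertical, linear from 0) at 0, 10, 30, 60 and 180 min in PEG (horizontal, evenly spaced), with 1 point per library, 10 min in orange, 30 min in dark blue and the other times in grey, and a line through the means. The nitrate, ZIP and ERF017 genes fall from 10 to 30 min, and the others rise, some to a peak at 30 min and some to higher levels at 180 min.

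The same step was compared with leaf and stem. In leaf itself 354 genes (0.765%) were called higher and 228 (0.493%) lower at 30 against 10 min, and in stem 0 (0%) were called either way with limma, with 2451 at an unadjusted p under 0.05. In leaf the root genes that rose had a median change of 0.34 and those that fell of -0.18, and in stem 0.21 and -0.18, against -0.01 and 0.00 over all genes. Tested as a difference between the steps in 1 limma fit of all 45 libraries and 54622 genes, 271 genes (0.496%) changed more upward in root than in leaf and 433 (0.793%) more downward. Against stem the counts were 139 (0.254%) and 200 (0.366%). Of these 704 and 339 genes, 428 and 289 were among the 2178 called in root. In 293 of the 704 the gene stayed under 1 FPKM in all 6 leaf libraries of 10 and 30 min, and in 223 of the 339 in all 6 of stem. In such genes the other tissue can move by less than 1 on the log2 scale, and the value rests mostly on root. Their small spread in that tissue also enters the shared estimate, so their p may be too small.

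Those counts moved with the settings and with single libraries. With voom precision weights 48 and 1 genes were called against leaf and stem, and with a pseudocount of 0.1 they were 304 and 90. Without root 30 min replicate 1 the counts were 1242 and 638, and without root 30 min replicate 3 they were 356 and 195. Without root 10 min replicate 3 they were 393 and 215. Against leaf they were 387 without root 30 min replicate 2, 390 without leaf 10 min replicate 1 and 380 without leaf 30 min replicate 1, and against stem 203 without stem 10 min replicate 2.

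The MYB-like gene Gohir.A05G266900 rose in root by 2.35 and differed from leaf by 2.37 (SE 0.28, adjusted p = 1.34e-05) and from stem by 2.44 (SE 0.28, adjusted p = 9.07e-06). In leaf it ranged over 0 to 0.0435 FPKM at 10 min and 0 FPKM in all libraries at 30 min, and in stem over 0 to 0.548 FPKM at 10 min and 0 to 0.278 FPKM at 30 min. The gene was thus at or near 0 in both tissues at both times. The nitrate transporter Gohir.D03G137100 differed from leaf by -3.52 (SE 0.52, adjusted p = 0.000169) and from stem by -3.57 (SE 0.52, adjusted p = 0.000167). Its range was 0 FPKM in all libraries at 10 min and 0 FPKM in all libraries at 30 min in leaf and 0 FPKM in all libraries at 10 min and 0 to 0.0966 FPKM at 30 min in stem, so those tissues held almost none of it. The ZIP gene Gohir.D13G137100 differed by -2.08 (SE 0.21, adjusted p = 7.33e-07) from leaf and by -2.08 (SE 0.21, adjusted p = 7.33e-07) from stem, at 0 FPKM in all libraries at 10 min and 0 FPKM in all libraries at 30 min in leaf and 0 FPKM in all libraries at 10 min and 0 FPKM in all libraries at 30 min in stem. For these 3 genes the difference restates the root change. Leaf and stem libraries at or near 0 share the estimate of the spread, so these SE and p may understate the spread in root. In the limma fit of root alone, Gohir.D13G137100 had an SE of 0.24 and an adjusted p of 0.00275.

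For other genes of the root step the tissues could not be told apart. The WRKY gene Gohir.D12G127000 differed from leaf by 0.24 (SE 0.65, adjusted p = 0.933) and from stem by 1.78 (SE 0.65, adjusted p = 0.284), with leaf means of 3.18 FPKM at 10 min and 18.6 FPKM at 30 min and stem means of 8.63 and 12.3 FPKM. ERF017 (Gohir.D07G016000) differed by -1.78 (SE 0.82, adjusted p = 0.331) from leaf and -1.90 (SE 0.82, adjusted p = 0.423) from stem. A p that misses the threshold does not show that the steps were alike. The LEA gene Gohir.D01G191900, in contrast, differed from leaf by 2.01 (SE 0.45, adjusted p = 0.0146) and from stem by 2.97 (SE 0.45, adjusted p = 0.000267), and its means went from 66.5 to 59.7 FPKM in leaf and from 55.5 to 25.9 FPKM in stem.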

How the data were processed

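The deposited table gives FPKM per gene and library, made by the authors. The submitters' processing notes name HISAT2 2.0.5, an aligner, and featureCounts 1.5.0-p3, a read counter. The sources used here give no genome build, strand setting or rule for reads that fit several copies. Coordinates and descriptions are those of the table. Multiplied by gene length, 100% of values were whole reads to within 0.01 (at most 0.00597 off), and the deposited values had been scaled by median-of-ratios size factors (relative difference 7.86e-08), not library totals. The 3 root libraries at 0 min include 2 columns with the same name, used as members of that group without a number.

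Genes with at least 1 FPKM in at least 3 root libraries were kept. Values were fitted as log2(FPKM + 1) with limma 3.58.1 in R 4.3.3, with time as 1 factor over the 15 root libraries and empirical Bayes moderation with a trend and robust settings, so the groups share 1 estimate of the spread. The contrast was 30 min minus 10 min, with Benjamini-Hochberg adjustment over all genes tested, and every adjusted p in the text is from limma. Differences between tissues came from 1 fit of all 45 libraries. The procedure was tested on simulated data with fewer changed genes than were called here. It recovered 0 of 67 genes with a log2 change of 0.5, 17 of 67 at 1 and 50 of 66 at 2, and called 5 unchanged genes. A count of 0 called thus does not show that no gene changed. No set test was run: lists, drawn by words in the descriptions, are given by counts and medians.

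The members of lists, the comparison and the tests were chosen with earlier results of these data known. Genes named are, among described and called genes, the top 12 rises and the top 12 falls with groups that did not overlap, the 2 called members of each list with the smallest p (for phosphoinositide and abscisic acid lists also where not called), and the 4 described genes with the smallest p for each difference between tissues; others are marked as chosen after their values were seen. Alternatives were another pseudocount, other filters, scaling by own totals or quantiles, voom weights on the reads read back, the replicate number as a block, fits of 6 or 45 libraries, and each library left out. Figures were drawn with matplotlib 3.10.9.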

Additional observations from a re-analysis of the deposited data

Results flagged for a closer look

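For 5 genes the step from 10 to 30 min differed between root and another tissue, by the test of the difference itself in the fit of all 45 libraries. These were the 4 described genes with the smallest p against each tissue, 3 of them shared. Each is given as the root change minus the change in the other tissue, on the log2 scale. In each of the 5 the other tissue held 0 to 1.05 FPKM in every library of both times, so the value rests mostly on the root change and shows little of that tissue's own response. Such libraries share the estimate of the spread, so the SE and p below may understate the spread among root libraries.

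The MYB-like gene Gohir.A05G266900 differed from leaf by 2.37 (SE 0.28, adjusted p = 1.34e-05) and from stem by 2.44 (SE 0.28, adjusted p = 9.07e-06). The ZIP zinc transporter Gohir.D13G137100 differed by -2.08 (SE 0.21, adjusted p = 7.33e-07) and -2.08 (SE 0.21, adjusted p = 7.33e-07). Both were near 0 in leaf and stem, as given above.

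Gohir.D11G022500 (chromosome D11, 1875935 to 1876699), with a RING finger domain found in many ubiquitin ligases, differed by -2.03 (SE 0.20, adjusted p = 2.75e-07) from leaf and -2.14 (SE 0.20, adjusted p = 7.10e-08) from stem. In root it had 4.34, 2.94 and 6.26 FPKM at 10 min and 0.309, 0.177 and 0.0941 FPKM at 30 min, after a mean of 0.281 FPKM at 0 min, so it was high at 10 min alone among the means up to 30 min. Its range was 0 to 0.334 FPKM at 10 min and 0 FPKM in all libraries at 30 min in leaf and 0 to 0.0666 FPKM at 10 min and 0 FPKM in all libraries at 30 min in stem.

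Gohir.A02G124000 (chromosome A02, 89741802 to 89743725), a 2-oxoglutarate and iron dependent oxygenase, differed from leaf by -2.97 (SE 0.35, adjusted p = 1.23e-05). In root it had 16.2, 23.6 and 31.4 FPKM at 10 min and 5.61, 3.04 and 1.49 FPKM at 30 min, and in leaf 0 to 0.563 FPKM at 10 min and 0.224 to 1.05 FPKM at 30 min. Gohir.D09G023700 (chromosome D09, 7633336 to 7635685), an EamA-like transporter, differed from stem by -1.42 (SE 0.18, adjusted p = 3.08e-05). In root it had 48.2, 50.4 and 45.2 FPKM at 10 min and 18.4, 16.9 and 16.4 FPKM at 30 min, and in stem 0 FPKM in all libraries at 10 min and 0 FPKM in all libraries at 30 min.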

How the results depend on the processing

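The count of genes called in root (2178) was 1511 to 3054 with another pseudocount, another filter, another scaling or voom weights. Scaled by library totals, 1270 rose and 1479 fell, a share of 46.2% higher against 53.4%, and the median of all genes was -0.07. The count was 306 with the 6 libraries alone (109 higher and 197 lower), 4046 with all 45 libraries in the fit, and 419 to 3817 with each library left out. The fit of 6 libraries has fewer samples to estimate the spread, and the cause of the other moves was not tested. Counts of difference from leaf (704) and stem (339) were 304 and 90 with a pseudocount of 0.1, 48 and 1 with voom weights, and 356 to 1242 and 195 to 638 with each library left out. With the replicate number as a block, in the libraries of 10 to 180 min, 1034 genes were called in root. Libraries with the same number deviated together at r of 0.148, 0.213 and 0.056, and not every library correlated best with its own number, so the numbers were not taken as pairs. Over the named genes and all alternatives, 0 changes reversed in sign. These genes were chosen by their calls and the alternatives reuse the same libraries, so a reversal was unlikely from the start. Of those values for the root step, 1134 stayed on the same side of the threshold and 324 lost the call. Depth was 16582108 to 19205772 reads, and a single read over 1 kb of gene added 0.0563 to 0.0720 FPKM, so levels near that value rest on single reads.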
